A study of Mus musculus with 8 samples.

Results

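Proximal T cell receptor signalling is the set of enzymes and adaptors that act directly beneath the receptor, and 9 mouse genes that encode such proteins were profiled here, namely Lck, Fyn, Zap70, Lat, Lcp2, Skap1, Themis, Ubash3a and Prkcq. The genes are defined by name and not by a methylation value, although they were chosen with earlier results of these data known, and they are 9 of 21755 protein-coding genes of GENCODE M21 on the autosomes and X. Each was followed from 10 kb before its start to 10 kb after its end in the mouse build GRCm38 (mm10), which gave 11722 CpGs listed in every library.

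The assay was oxidative bisulfite sequencing of whole genomes, in which an unmodified cytosine is read as T and a methylated cytosine is read as C. The libraries came from spleens of C57BL/6J mice of 6 to 8 weeks, with no treatment or mutation named in the labels. The T cells were naive helper cells sorted as CD4+, CD62L high, CD44 low and CD25-, and the B cells were labelled CD43- and resting. The 8 samples were B and T cells of either sex, 2 samples for each of the 4 combinations. The pair of samples in a combination shares a single deposited file with 1 value per CpG. Each file was therefore taken as 1 library with no standard deviation, and all tests compared these 4 libraries. Each sample was made of cells pooled from several mice, so the spread between animals was not measured. The protocol in the labels describes the T cell sort in detail and not that of the B cells, and the study's methods name a B cell isolation kit for splenic B cells without saying whether it served these libraries.

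When the T cell receptor is bound, LCK and FYN, kinases of the Src family, phosphorylate the tails of its CD3 and zeta chains, and ZAP-70 docks on the phosphorylated tails. ZAP-70 then phosphorylates LAT and SLP-76, the product of Lcp2, which assemble the complex that raises calcium and activates Ras and protein kinase C. B cells use related proteins beneath their own receptor, among them BLK, LYN, SYK and BLNK. Methylation of CpGs at promoters and enhancers is generally low where these are active, and in most of the rest of the genome CpGs are highly methylated.

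Read counts summed over the listed CpGs ran from 280919817 (male B cells) to 354634149 (female B cells) in a library. A read over several CpGs counts at each of them, here and in the regions below. A listed CpG had a median of 13 to 17 reads and never under 5. Of the CG sites of the reference in the 9 windows, 99.4% were listed in at least 1 library, and all 12459 listed positions fell on a CG. Promoters of marker genes matched the labels. All 5 B cell markers tested (Ms4a1, Cd79a, Cd79b, Cd22, Fcrla) were called lower in B cells, and all 5 T cell markers (Cd3d, Cd3e, Cd3g, Cd247, Cd4) were called lower in T cells, with levels of 0.566% to 9.87% in T cells and 70.3% to 94.9% in B cells. Among markers of other cells, Csf1r, Klrb1c and Ncr1 stood at 78.9% to 91.5% in every library and Lyz2 (47.2% to 66.2%) and Itgam (59.7% to 73.6%) were not called. With no minimum difference these last passed the test described below, Lyz2 lower in B cells by 16.8 points and Itgam lower in T cells by 13.0 points. The promoters of Cd8a and Cd8b1 were also called lower in T cells, by 28.8 and 60.6 points, although cells carrying CD8a were depleted before the T cell sort, and the part of this in the results below was not tested.

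Stretches of 300 bases, 5 in all, show where the difference lies in the sequence. They were taken from GRCm38 and are printed 5′ to 3′ on the strand of the gene, with each CG in capitals, and no annotated exon overlaps them. The first 4 belong to the promoters with the largest difference between the cell types, in the order of that difference, and the last lies in an intron of Prkcq, whose promoter was low in both cell types.
Themis: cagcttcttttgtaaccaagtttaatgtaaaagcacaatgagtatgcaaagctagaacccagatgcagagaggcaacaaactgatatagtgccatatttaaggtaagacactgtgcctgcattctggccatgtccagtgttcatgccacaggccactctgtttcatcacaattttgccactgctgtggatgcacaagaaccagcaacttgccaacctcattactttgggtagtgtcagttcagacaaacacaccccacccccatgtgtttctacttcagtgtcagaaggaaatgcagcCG
Zap70: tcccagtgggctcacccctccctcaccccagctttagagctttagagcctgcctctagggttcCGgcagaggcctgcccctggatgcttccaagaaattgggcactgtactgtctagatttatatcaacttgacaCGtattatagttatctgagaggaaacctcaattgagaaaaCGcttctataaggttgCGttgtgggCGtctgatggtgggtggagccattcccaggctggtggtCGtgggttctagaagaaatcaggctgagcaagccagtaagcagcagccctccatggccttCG
Lck: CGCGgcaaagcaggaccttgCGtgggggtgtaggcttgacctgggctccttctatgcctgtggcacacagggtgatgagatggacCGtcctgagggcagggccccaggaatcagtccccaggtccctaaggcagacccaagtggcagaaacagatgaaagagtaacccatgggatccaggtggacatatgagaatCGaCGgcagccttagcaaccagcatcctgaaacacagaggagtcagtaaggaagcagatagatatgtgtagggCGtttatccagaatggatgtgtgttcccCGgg
Skap1: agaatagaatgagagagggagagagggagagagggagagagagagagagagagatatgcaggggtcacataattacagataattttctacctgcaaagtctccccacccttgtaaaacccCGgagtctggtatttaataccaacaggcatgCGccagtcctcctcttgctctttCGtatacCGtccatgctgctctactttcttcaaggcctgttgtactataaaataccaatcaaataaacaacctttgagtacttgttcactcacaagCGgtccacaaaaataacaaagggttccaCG
Prkcq: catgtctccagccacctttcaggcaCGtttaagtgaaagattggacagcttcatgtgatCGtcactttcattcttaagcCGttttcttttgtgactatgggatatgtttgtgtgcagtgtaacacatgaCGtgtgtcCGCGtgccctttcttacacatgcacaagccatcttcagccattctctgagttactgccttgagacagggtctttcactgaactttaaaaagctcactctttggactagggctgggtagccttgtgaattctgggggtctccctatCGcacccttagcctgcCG

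The Themis stretch (chr10:28668059-28668358, plus strand) ends just before the gene start and holds 1 CG, which was methylated in 77.8% of reads in both B cell libraries and in 0 of 34 reads in female and 0 of 22 reads in male T cells. The Zap70 stretch (chr1:36761081-36761380, plus strand) holds 7 CGs, with 86.9% (females) and 86.4% (males) in B cells against 11.6% and 8.47% in T cells. The Lck stretch (chr4:129572875-129573174, minus strand) begins 467 bases after the start and its 8 CGs stood at 91.8% and 96.8% in B cells against 6.00% and 7.57% in T cells. In the Skap1 stretch (chr11:96463629-96463928, plus strand), upstream of the start, the levels over 6 CGs were 91.0% and 86.0% in B cells and 7.94% and 7.23% in T cells. The Prkcq stretch (chr2:11175691-11175990, plus strand) begins 3583 bases after the start, and its 8 CGs stood at 95.8% and 96.3% in B cells and at 1.61% and 1.55% in T cells. Every listed CG of these 5 stretches differed by at least 50 points in both sexes, and the stretches were picked for such CGs, so this is a description and not a result.

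The first comparison asked whether the promoters, taken as the 2 kb centred on the gene start, differed between B and T cells. Of the 9 promoters, 6 were called, all of them higher in B cells, in the order Themis, Zap70, Lck, Skap1, Ubash3a and Lcp2, and those of Fyn, Lat and Prkcq were not. A region was called when the adjusted p was under 0.05 and the means of the B and T cell libraries lay at least 20 percentage points apart. The adjusted p is that of edgeR's quasi-likelihood test on methylated and unmethylated reads, two-sided, with Benjamini-Hochberg adjustment over all regions of a kind in the genome. Over all 20501 promoters tested, 0.956% were called higher in B cells and 0.410% higher in T cells. The median difference of the 9 promoters was 26.0 points, beside 0.970 points over all promoters. In each of the 9 both B cell libraries lay above both T cell libraries, as in 43.9% of all promoters, and the reverse order held in 10.6% of all promoters.

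Lck is the kinase that the CD4 and CD8 coreceptors carry to the receptor. Its promoter (chr4, gene at 129548344 to 129573641, minus strand, 35 CpGs) was methylated at 70.2% in female B cells (95% Wilson interval 66.6 to 73.5) and 71.5% in male B cells (67.5 to 75.3). In T cells it stood at 7.65% in females (5.94 to 9.80) and 7.49% in males (5.80 to 9.63). The difference was 63.3 points (adjusted p 1.46e-83), and 16 of the 20501 promoters had a larger one in the same direction. Such intervals cover counting error only, since the reads have no molecular identifiers and neighbouring CpGs share reads.

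Zap70 encodes the kinase that reads the phosphorylated receptor. Its promoter (chr1, gene at 36761798 to 36782818, plus strand, 37 CpGs) stood at 84.8% (82.1 to 87.3) in female and 88.4% (85.4 to 90.8) in male B cells. The T cell libraries had 20.2% (17.3 to 23.6) and 17.0% (14.4 to 20), so Zap70 kept more methylation in T cells than any other called promoter of the 9. The difference was 68.0 points (adjusted p 1.87e-84).

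Themis, which encodes a protein needed for thymocyte selection, had the largest difference. Its promoter (chr10, gene at 28668360 to 28883818, plus strand) holds only 6 CpGs listed in all libraries, and these stood at 86.4% (79.1 to 91.5) in female and 83.5% (75.1 to 89.4) in male B cells. In T cells 0 of 150 reads in females and 0 of 124 reads in males were methylated, which allows up to 2.00% and 2.42%. The difference of 85.0 points (adjusted p 1.74e-74) was the 3rd largest of all promoters.

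The remaining called promoters were only partly methylated in B cells. Skap1 (chr11, 96464593 to 96759130, plus strand) encodes an adaptor that links the receptor to integrins, and its promoter had 38.8% (35.7 to 42.1) and 35.3% (31.8 to 39.0) in the B cells of females and males and 1.65% and 1.53% in the T cells, a difference of 35.5 points. Ubash3a (chr17, 31207873 to 31246892, plus strand), which encodes a protein that dampens receptor signalling, stood at 27.0% and 32.4% in B cells and at 4.22% and 3.24% in T cells (26.0 points). Lcp2 (chr11, 34046920 to 34092295, plus strand) stood at 23.6% and 30.6% in B cells and at 0.935% and 2.46% in T cells (25.4 points). The adjusted p was 4.51e-65 for Skap1, 1.45e-34 for Ubash3a and 1.37e-31 for Lcp2. Leaving out a library ended the call of Lcp2 in 3 of 4 cases. Its difference was 24.7 points without female T cells, 21.9 points without male B cells and 26.2 points without male T cells. Ubash3a was no longer called without female T cells (26.5 points) or without male T cells (25.5 points). Such fits have 1 library in a cell type and no sex term, and they called fewer of all promoters too. A lost call therefore does not set these genes apart from other promoters.

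The promoters of Fyn, Lat and Prkcq were low or partly methylated in both cell types. Prkcq (chr2, 11172108 to 11301222, plus strand) encodes protein kinase C theta, which links the T cell receptor to NF-kappaB, and its promoter stood at 4.20% and 6.77% in B cells and at 0.761% and 0.595% in T cells. Fyn (chr10, 39368855 to 39565381, plus strand) stood at 9.42% and 11.1% in B cells and at 3.31% and 3.57% in T cells. These differences, 4.81 points for Prkcq (adjusted p 5.35e-12) and 6.82 points for Fyn (3.59e-07), passed the test and missed the 20 points. With no minimum difference, 8 of the 9 promoters passed, beside 17.7% of all promoters toward B cells and 2.20% toward T cells. The passes of Fyn and Prkcq were lost in 3 of 4 cases when a library was left out, in fits where fewer of all promoters passed too. Lat (chr7, 126363824 to 126369570, minus strand), which encodes the membrane adaptor, stood at 22.0% and 26.4% in B cells and at 17.3% and 20.3% in T cells (5.39 points, adjusted p 0.163).

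**Figure D1:**
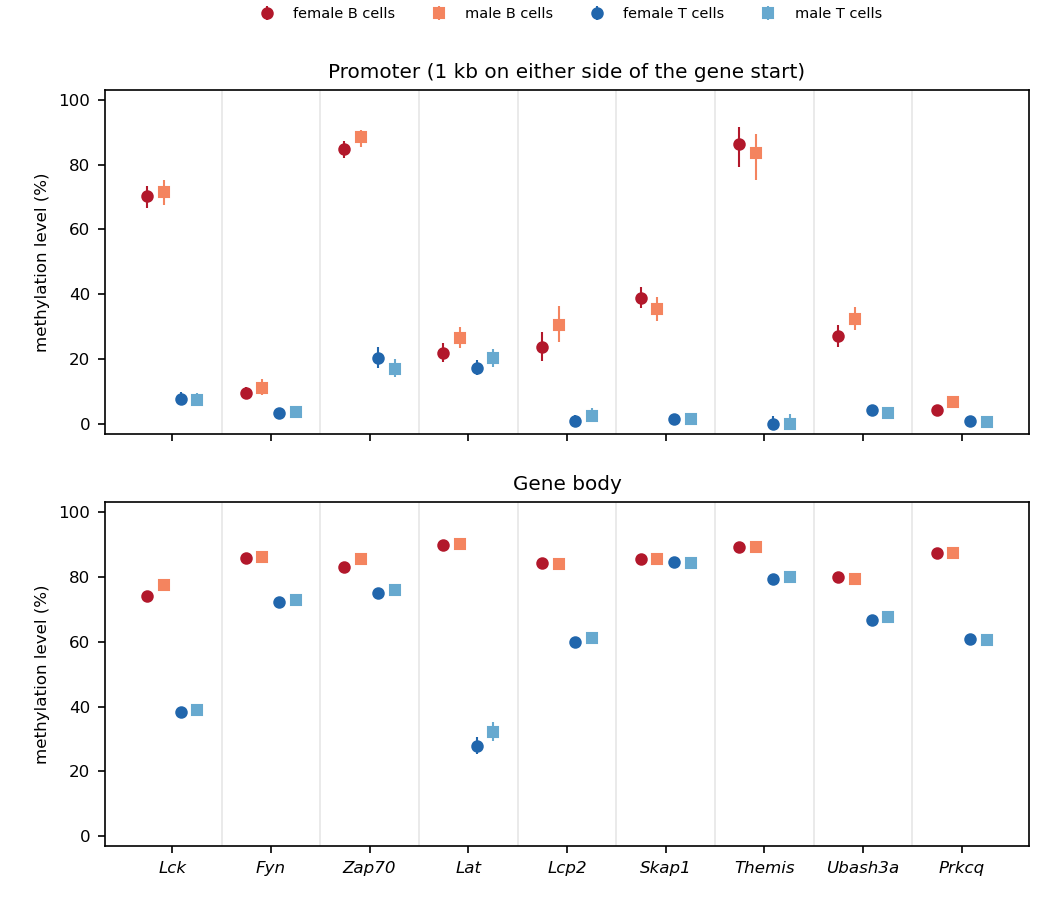
Methylation level in percent of the promoter (top) and the gene body (bottom) of the 9 genes in the 4 libraries, each point being 1 library and each bar its 95% Wilson interval for counting error. The promoters of Lck, Zap70 and Themis are above 70% in both B cell libraries and at or under 20.2% in both T cell libraries, and the gene bodies of Lck and Lat show the widest gaps.

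The width of the window decided several of these calls, since the level changed within the window. With 500 bases on either side of the start, Skap1 fell to a difference of 11.4 points, Ubash3a to 9.55 and Lcp2 to 5.19, all under the 20 points, while Lck (54.6), Zap70 (71.3) and Themis (83.4) were still called. Fyn passed the 20 points in the narrow window with 23.8. The annotated start of Fyn used here is that of transcript Fyn-208, and 8 CpGs around it stood at 17.1% and 24.6% in B cells and at 0% in both T cell libraries. The main start region of Fyn, 909 bases further on and with 59 CpGs, had at most 0.101% in any library.

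Starts of single transcripts were then compared, each with 250 bases on either side. Of 17 start regions of the 9 genes, 5 were called, all higher in B cells, beside 1.70% of 31666 start regions called higher in B cells and 0.887% higher in T cells. They were the start of Themis (83.4 points), the start of Zap70-201 (70.9), 2 starts of Fyn (43.2 at Fyn-209 and 20.9 at Fyn-208) and the distal start of Lck (23.1). With any 1 of the 4 libraries left out no start region of the genome was called, so those fits could not decide on the 5. The differences stayed between 17.1 points (Fyn-208 without male B cells) and 85.6 points (Themis without male B cells). With limma none of the 5 was called either, with adjusted p of 0.0640 to 0.126, and limma called 0 of the 31666 start regions, of which 5544 had an unadjusted p under 0.05. The calls at starts therefore rest on the edgeR fit of all 4 libraries, and neither alternative could check them. With no minimum difference 11 of the 17 passed in that fit, beside 5.97% of all start regions toward B cells and 1.62% toward T cells. No start region of the genome passed with limma or with a library left out.

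Lck has a distal and a proximal promoter, and both could be read. The distal start (Lck-202) stood at 21.9% and 25.5% in B cells and at 1.14% and 0% in T cells. The proximal start region, 15250 bases further into the gene and shared by Lck-201, Lck-206 and Lck-208, stood at 12.3% and 5.31% in B cells and at 0% and 0.485% in T cells, a difference of 8.54 points (adjusted p 6.44e-08) that was not called. From just before the distal start to just before the proximal one ran 16 adjoining bins of 1 kb that were all called, from -1360 to 14640 bases around the distal start (chr4:129559001-129575000). Over this 16 kb block the level was 88.8% and 90.3% in B cells and 27.5% and 27.7% in T cells. Zap70 had a region low in both cell types, where 3 CpGs at the start of Zap70-202, 5136 bases into the gene, were at most 3.77% in every library.

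The main start regions of Lat, Prkcq, Lcp2, Skap1 and Ubash3a were low in both cell types. That of Lat stood at 0.840% and 1.07% in B cells and at 0% in T cells, that of Prkcq-201 at 0.117% and 0.983% in the B cell and 0% and 0.159% in the T cell libraries, and that of Lcp2 at 3.52% and 6.86% in B cells and at 0% in T cells. Skap1 (6.35% and 6.46% in B cells) and Ubash3a (4.76% and 5.09% in B cells) were close to these. Where a start region stood at 0% in T cells, the reads allowed at most 0.455% (Prkcq-201 in females) to 5.00% (Zap70-202 in females). The internal start of Prkcq-202 was the only one with levels in the middle of the scale in each library, 50.3% and 51.8% in female B and T cells and 69.3% and 42% in male B and T cells. Females and males differed in direction there, and the test of that difference gave an unadjusted p of 0.0862 and an adjusted p of 1.00. The same test called 0 of the 31666 start regions of the genome.

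**Figure D2:**
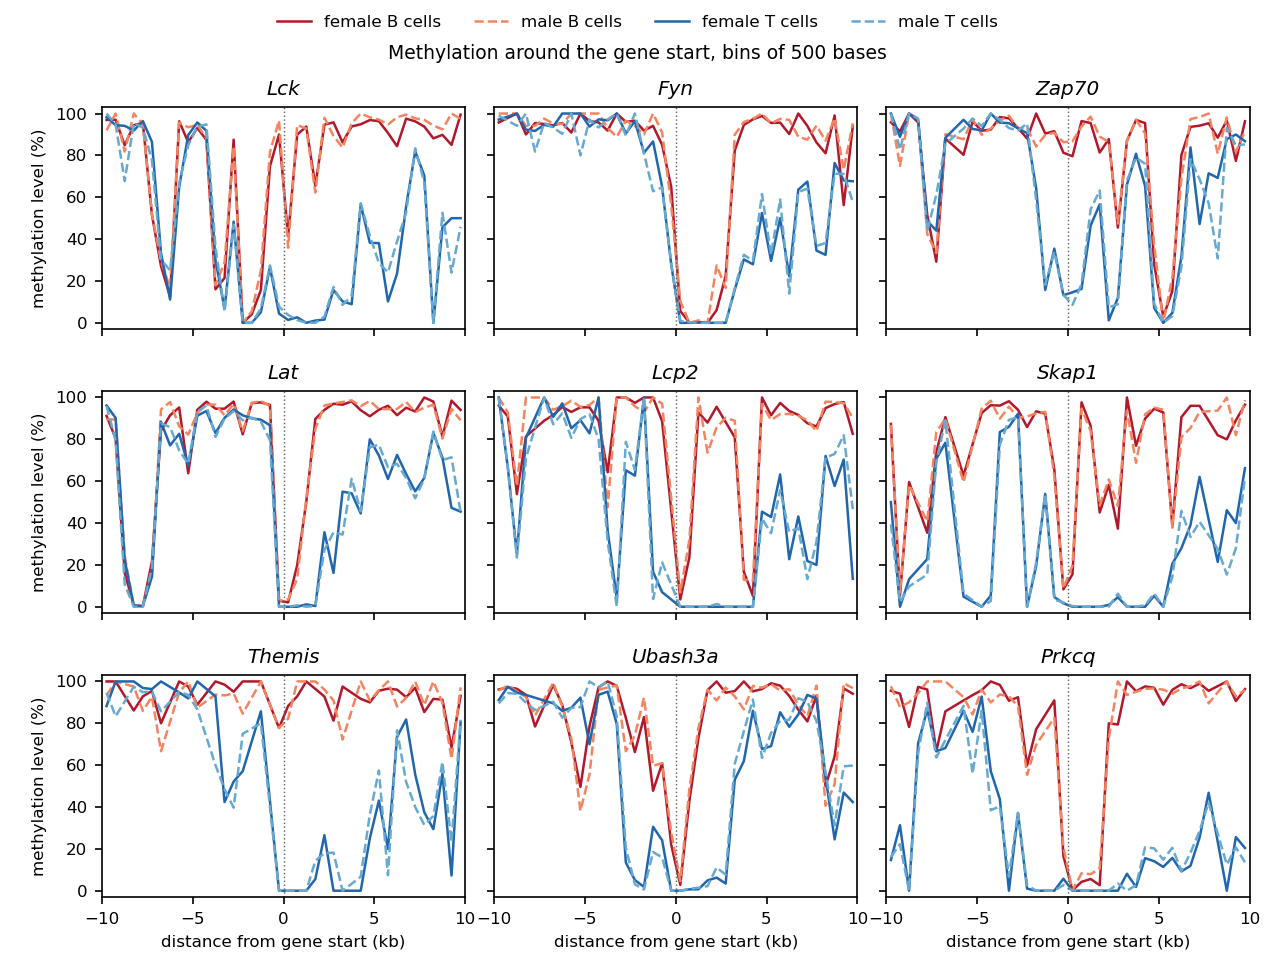
Methylation level in percent against the distance from the gene start in kb, in bins of 500 bases, for the 9 genes, with 1 line per library and bins that may hold a single CpG. At the start the B cell lines stay high in Themis and Zap70, drop to an intermediate level in Lck after a separate low region upstream, and fall to a low level in the other genes before they return, while both T cell lines are low on a longer stretch after the start of each gene.

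Since many of these starts were low in both cell types, the length of the low stretch over the start was measured next. A stretch is a run of at least 4 CpGs at each of which the level over 5 neighbouring CpGs was under 50% in both libraries of a cell type. In all 9 genes a stretch covered the start in T cells, and in all 9 it was at least 1 kb longer than in B cells. Prkcq had the longest, with 14.1 kb in T cells (chr2:11168430-11182508) and 2.39 kb in B cells. Skap1 had 7.56 kb in T cells and 0.785 kb in B cells, Fyn 4.77 and 2.89 kb, Ubash3a 3.90 and 1.47 kb and Lat 3.0 and 1.41 kb. In Lcp2, Themis, Lck and Zap70 no stretch covered the start in B cells, and in T cells it was 6.55, 6.24, 5.11 and 1.83 kb long. In B cells a low stretch of 52 bases began 8 bases after the start of Lck and another of 649 bases began 216 bases after that of Lcp2, so for these genes the absence of a B cell stretch depends on the exact start. These lengths depend on the 5 CpGs: read over 3 CpGs, the T cell stretch was 7.75 kb in Prkcq and 3.27 kb in Themis, and the B cell stretch of Ubash3a was 0.837 kb, while the T cell stretch was still at least 1 kb longer in all 9 genes. With 5 CpGs, the larger part of each T cell stretch lay after the start, from 1.17 kb of it in Zap70 to 10.4 kb in Prkcq, and the part before the start ran from 0.303 kb in Fyn to 3.68 kb in Prkcq.

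For comparison, 13628 of the 21755 protein-coding genes had such a stretch over the start in T cells, and in 6.75% of them it was at least 1 kb longer than in B cells (5.67% of 13542 genes when read over 3 CpGs). The median gap over the 13628 genes was 39 bases, and in 2.08% of these genes no stretch covered the start in B cells. Stretches were defined without a test, and the counts are a description of the 4 libraries.

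**Figure D3:**
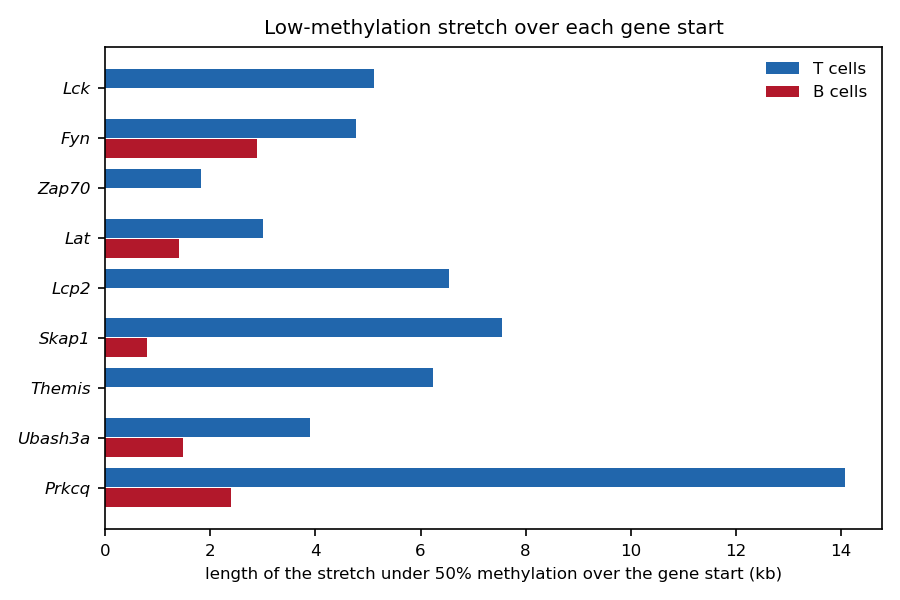
Length in kb of the stretch under 50% methylation that covers the start of each gene, in T cells (blue) and B cells (red), where no red bar means that no such stretch covered the start. The blue bar is the longer in all 9 genes, from 1.83 kb in Zap70 to 14.1 kb in Prkcq.

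Over the whole windows the 9 genes held 125 such stretches with 159 kb in T cells and 78 with 47.1 kb in B cells. Prkcq contributed 44.3 kb in T cells and 4.79 kb in B cells, and its second stretch, 10.3 kb long and beginning 13833 bases after the start, stood at 10.2% and 7.83% in T cells and 71.7% and 75.4% in B cells. Themis had 12.3 kb in T cells and 0.388 kb in B cells. Skap1 and Ubash3a had more stretches in B cells (23 and 10) than in T cells (17 and 9), though these covered 9.27 and 6.40 kb in B cells and 18.3 and 12.3 kb in T cells.

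Gene bodies were compared without the promoter. Bodies of 4 genes were called, all higher in B cells, namely Lat, Lck, Prkcq and Lcp2, beside 1.31% of 20353 bodies called higher in B cells and 0.123% higher in T cells. The body of Lat had 89.7% (females) and 90.3% (males) in B cells against 28.0% and 32.2% in T cells, with the widest counting interval of all bodies here in male T cells (29.3 to 35.1). Its difference of 59.9 points (adjusted p 9.41e-15) was the 6th largest of all bodies. Lck stood at 74.1% and 77.5% in B cells and at 38.2% and 39.1% in T cells (37.1 points). Prkcq stood at 87.3% and 87.5% in B cells and at 60.7% and 60.6% in T cells (26.8 points). Lcp2 stood at 84.3% and 84.1% in B cells and at 59.8% and 61.1% in T cells (23.8 points).

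The other bodies passed the test with smaller differences, all toward B cells, as did 38.4% of all bodies (4.35% passed toward T cells). These were 13.3 points in Fyn, 12.6 in Ubash3a, 9.64 in Themis, 8.81 in Zap70 and 1.2 in Skap1, with adjusted p from 3.69e-15 (Fyn) to 0.00189 (Skap1). That of Skap1 did not pass with limma (adjusted p 0.294) or without male T cells (0.945 points, adjusted p 0.0707). The median over the 9 bodies was 13.3 points and that over all bodies 1.27 points. Skap1 spans 295 kb and stood at 85.6% in both B cell libraries and at 84.7% and 84.2% in T cells. The large difference near its start was thus hardly visible in its body as a whole. In its window 21 bins of 1 kb were called higher in B cells and 10 higher in T cells, and the body level averages over both directions. The body calls for Lat, Lck, Prkcq and Lcp2 were made with each library left out in turn.

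Averaged over parts of each gene, the difference was larger over the first 25% than over the last, though in Lat not at the start itself. When each gene was cut in 20 parts of equal length, the mean difference over the first 25% was larger than that over the last 25% in all 9 genes. In Lck the first 25% stood at 86.5% in B and 17.4% in T cells, and the last at 97.1% and 85.7%. In Prkcq the first 25% stood at 73.9% and 19.8% and the last at 91.4% and 87.0%. Lcp2 gave 48.7 points at first and 7.99 at last, Zap70 38.1 and 5.01, Ubash3a 35.7 and -2.51, Themis 26.4 and 1.10, Lat 25.1 and 19.1, Skap1 16.9 and -3.76 and Fyn 15.0 and 6.83. These are means over parts, given with no test, and the same was not counted over other genes. The parts begin at the gene start, so the first 25% holds the 1 kb after it that is also in the promoter. In Lat, the shortest of the 9 genes, this 1 kb is most of the first 25%. The first part of Lat stood at 0.74% and 1.30% in B cells and at 0% in T cells. Its last part stood at 91.43% and 94.87% in B cells and at 62.16% and 69.44% in T cells. Each part had the same weight whatever its number of CpGs. The larger mean over the first 25% of Lat leaned on a part of 3 CpGs, at 63.89% and 81.48% in B cells and 2.08% and 0% in T cells.

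Flanks were the 10 kb before the gene start, without the promoter window, and the 10 kb after the gene end. Upstream flanks of Prkcq and Skap1 were called, both higher in B cells, beside 0.820% of 21455 upstream flanks called higher in B cells and 0.117% higher in T cells. The flank of Prkcq stood at 88.2% and 86.0% in B cells and at 49.6% and 47.1% in T cells (38.7 points), and that of Skap1 at 74.5% and 74.9% in B cells and at 46.4% and 44.0% in T cells (29.6 points). Downstream, only the flank of Lat was called, at 88.7% in both B cell libraries and 45.6% and 44.7% in T cells (43.5 points), beside 0.712% of 21491 downstream flanks called higher in B cells and 0.0838% higher in T cells. Some flanks hold the start of another gene, as that of Lck (Fam167b upstream and Hdac1 downstream), Lat (Spns1 upstream), Lcp2 (4930469K13Rik downstream) and Ubash3a (Tmprss3 upstream). With no minimum difference, 8 upstream and 5 downstream flanks passed, all toward B cells, beside 21.2% and 22.5% of all flanks toward B cells and 3.94% and 3.81% toward T cells. Of these, the upstream flank of Fyn and the downstream flanks of Lck, Fyn and Prkcq missed the adjusted p with at least 1 library left out (adjusted p up to 0.283). The upstream flank of Lck, with 58.6% to 61.3% in all libraries, differed by -0.799 points (adjusted p 0.844).

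To place the differences more finely, the windows were read in bins of 1 kb. Of 926 bins tested, 224 (24.2%) were called higher in B cells and 21 (2.27%) higher in T cells, beside 2.36% and 0.812% of 1530528 bins in the genome. With no minimum difference 441 bins passed toward B cells and 44 toward T cells, beside 7.14% and 2.15% in the genome. The share of bins called higher in B cells was 50% in both Lck and Lat, 46.7% in Prkcq, 38.5% in Lcp2, 26.3% in Fyn, 22.6% in Ubash3a, 20% in Zap70, 18.8% in Themis and 7.24% in Skap1. By place, with each bin counted once, 14 of 23 bins that touch a promoter window were called in either direction. The counts were 186 of 661 in introns, 17 of 107 for exons, 14 of 59 upstream and 14 of 76 downstream. Bins counted under promoter windows or flanks can also touch an exon. Shares by place were not counted over the genome, so whether these differences between places are particular to these genes was not tested. Bins next to each other share reads and are not independent, so these counts carry no test of their own.

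**Figure D4:**
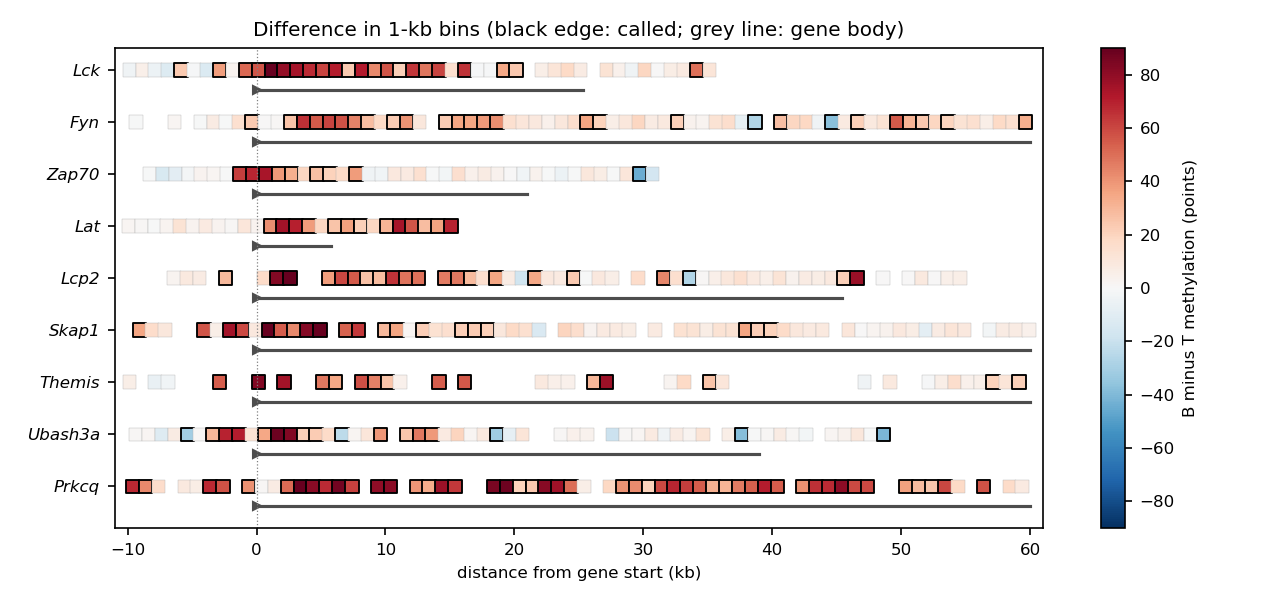
Difference in methylation (B minus T, in percentage points, colour) in bins of 1 kb against the distance from the gene start in kb, up to 60 kb after it, with black edges on called bins and a grey line for the gene body. Red bins, higher in B cells, gather in the first kilobases after the start of each gene. In several genes, such as Lck, Fyn, Lat, Lcp2 and Prkcq, called ones also lie far into or beyond the gene.

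The bin with the largest difference lay within 4 kb after the start in each of the 9 genes. This count was made after the values had been seen. Among 7822 protein-coding genes of at least 5 kb with a bin called higher in B cells in the same window, 11.1% had their largest bin there, and among the 1002 genes with at least 8 such bins 10.9% had. In the list of other pathway genes described below, 15 of 32 (46.9%) had it there.

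In 6 of the genes the largest bin was close to unmethylated in T cells, and in Lat, Zap70 and Fyn it was not. In Lcp2 a bin in an intron, 2581 bases after the start (chr11:34049001-34050000), stood at 93.5% and 93.1% in B cells and at 0% (0 of 154 reads, which allows up to 1.95%) and 0.690% in T cells, a difference of 93.0 points. Other bins of Lcp2, 1581 bases after the start and beyond the gene end (46581 bases from the start), differed by 82.7 and 78.0 points, and the gene 4930469K13Rik overlaps that of Lcp2. In Prkcq the bin at chr2:11175001-11176000, 3393 bases after the start, stood at 93.4% and 95.1% in B cells and at 2.45% and 1.54% in T cells (92.2 points), and bins 6393 and 19393 bases after the start differed by 86.9 and 88.1 points. In Lck the bin at chr4:129572001-129573000 stood at 91.3% and 93.3% in B cells and at 1.39% and 0.898% in T cells (91.2 points), and the bins 2140 and 3140 bases after the start followed with 79.2 and 75.1 points.

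Skap1 and Ubash3a held bins of the same kind. In Skap1 the bins 908 and 4908 bases after the start each differed by 90.5 points, the former at 92.0% and 89.3% in B cells and at 0% (0 of 304 reads, which allows up to 0.987%) and 0.342% in T cells. Another, 3908 bases after the start, differed by 82.6 points, with 0 of 210 reads methylated in female T cells, and 5 adjoining bins (chr11:96465001-96470000) stood at 78.4% and 74.0% in B cells and at 0.814% and 1.40% in T cells. In Ubash3a the bin 1628 bases after the start stood at 91.3% and 92.5% in B cells and at 4.08% and 2.62% in T cells (88.5 points), the next differed by 83.5 points and an upstream bin, at -1372 bases, by 70.8. In Themis the bin at the start differed by 83.4 points and others 27141 and 2141 bases after the start by 77.2 and 75.9 points.

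In Lat, Zap70 and Fyn the T cells kept more methylation in the leading bins. The first of Lat, 2069 bases after the start and touching exons (chr7:126367001-126368000), stood at 92.3% and 91.4% in B cells and at 17.9% and 14.6% in T cells (75.6 points). A second bin of Lat, beyond the end of the gene and 11069 bases from its start, stood at 93.7% and 93.9% in B cells and at 19.8% and 18.7% in T cells (74.6 points), and another, 3069 bases after the start, differed by 70.3 points. In Zap70 the bins at 703, -297 and -1297 bases from the start differed by 74.5, 68.5 and 62.1 points. In Fyn the bin 3646 bases after the start stood at 90.1% and 92.6% in B cells and at 25.7% and 25.6% in T cells (65.7 points), and others, 5646 and 100646 bases into the gene, differed by 60.7 and 60.1 points.

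Bins lower in B cells were found in 5 of the genes, 10 of them in Skap1, 5 in Ubash3a, 4 in Fyn and 1 each in Zap70 and Lcp2. The largest lay in an intron of Skap1, 180908 bases after the start (chr11:96645001-96646000), at 31.2% and 30.4% in B cells and at 86.4% and 91.4% in T cells, a difference of -58.1 points (adjusted p 5.09e-46). All 10 in Skap1 lay more than 100 kb after the start, between 114908 and 278908 bases. In Fyn an intronic bin 44646 bases after the start stood at 5.45% and 2.60% in B cells and at 38.6% and 44.8% in T cells (-37.7 points), the lowest levels in B cells of any such bin. The bin of Zap70 (-44.6 points) and the largest of Ubash3a (-41.4 points) lay beyond the ends of the genes, in windows that touch neighbouring genes. That of Lcp2 differed by -27.2 points and rested on 5 CpGs. With limma 14 bins lower in B cells were called in place of 21, and 205 bins higher in B cells in place of 224. Over the genome limma also called fewer, 9316 in place of 12426 and 29886 in place of 36054.

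At single CpGs the same contrast appeared. A CpG at 70% or above in both B cell libraries and at 30% or below in both T cell libraries was found 688 times among the 11722 CpGs (5.87%), beside 0.405% of the autosomal CpGs. The reverse was found 50 times (0.427%), beside 0.168%. The share was highest in Lck (15.1%) and Prkcq (15.0%) and lowest in Skap1 (1.87%). At least 70% in all 4 libraries was found for 59.1% of the CpGs of these genes and 72.6% of autosomal CpGs.

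No region was called for a difference between the sexes in the contrast of B and T cells. Of the 9 promoters and 926 bins, 0 were called when the B minus T difference of females was tested against that of males with edgeR, with 40 of 935 at an unadjusted p under 0.05, and with limma 0 were called and 32 of 935 had an unadjusted p under 0.05. In the genome the edgeR test called 13 of 1530528 bins and 0 of 20501 promoters, and limma called 0 of either. With so few calls anywhere, the test could not decide whether the sexes differ in these genes. Within females alone the 6 called promoters differed by 22.7 to 86.4 points and within males alone by 28.2 to 83.5 points.

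Base composition of the promoters varied widely. The ratio of observed to expected CpGs over the 2 kb around the start was lowest in Themis (0.138, with 10 CpGs in the reference) and Lcp2 (0.142), and highest in Prkcq (0.555), Fyn (0.492) and Skap1 (0.439). The mean level in B cells was 85.0% in Themis and 5.48% in Prkcq, but it was 27.1% in Lcp2 and 37.1% in Skap1, and Zap70 (0.257), Lck (0.256) and Lat (0.272), which had nearly the same ratio, stood at 86.6%, 70.9% and 24.2%. In T cells the promoters with the most methylation were Lat and Zap70, with means of 18.8% and 18.6%.

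Short motifs of factors known in T cells were counted in the bins of 1 kb, on both strands, as a description of the letters. The motif TGTGGTT, bound by RUNX factors, was in 20.5% of the 224 bins called higher in B cells and in 21.7% of all bins tested in the genome. The motif ACAGGAA of ETS factors was in 28.6% and 26.6%, CTTTGAA of TCF1 and LEF1 in 27.2% and 22.5%, AGATAA of GATA factors in 46.4% and 46.2% and the E-box CAGGTG in 55.8% and 50.6%. None of these 5 words contains another, and bins were not matched for base composition or distance to a start. In the 681 bins of the 9 genes that were not called the shares were, in the same order, 19.2%, 27.2%, 20.7%, 46.4% and 51.4%, and in all bins of the genome called higher in B cells they were 32.2%, 34.7%, 27.3%, 47.2% and 57.1%.

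Relatives of these genes known from B cells or other blood cells were compared next, 1 for each gene in the same order, namely Blk, Lyn, Syk, Lat2, Blnk, Skap2, Themis2, Ubash3b and Prkcb. Of the 9 promoters 3 were called, all higher in T cells. Over all promoters 0.410% were called higher in T cells and 0.956% higher in B cells. Blnk, the adaptor that takes the place of SLP-76 in B cells, stood at 12.8% and 13.9% in B cells and at 57.1% and 56.1% in T cells (-43.2 points). Blk, a Src family kinase of B cells, stood at 24.5% and 26.5% in B cells and at 57% and 52.9% in T cells (-29.4 points). Lat2, the counterpart of LAT, stood at 39.7% and 41.0% in B cells and at 67.1% and 64.0% in T cells (-25.2 points). The adjusted p was 2.64e-36, 1.38e-12 and 1.17e-09 for these. Blnk was not called without female T cells (-42.7 points) or without male T cells (-43.7 points). Blk and Lat2 were not called with any 1 library left out, in fits that called fewer of all promoters too. With 500 bases on either side of the start Blk differed by -8.59 points and was not called, and Blnk (-20.1 points) and Lat2 (-21.9 points) were.

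The other relatives were not called. Lyn, a Src family kinase, was at 2.79% to 4.75% and Syk, the kinase related to ZAP-70, at 0.494% to 2.54% in the 4 libraries, and Skap2 had at most 1.56%. Ubash3b differed by 16.7 points toward B cells (adjusted p 0.000123), and Themis2 by -3.62 and Prkcb by 1.67 points (adjusted p 0.161 and 0.498). Over the 9 relatives the median promoter difference was -1.51 points, and 34 of 988 bins (3.44%) were called higher in B cells and 56 (5.67%) higher in T cells. The shares over all bins in the genome were 2.36% and 0.812%. In T cells no low stretch covered the start of Lat2, Blnk, Ubash3b or Prkcb. None of the other relatives had one at least 1 kb longer in T cells. The share was 6.75% over the 13628 genes with a stretch over the start in T cells, so a count of 0 is near it. In 3 relatives (Blnk, Themis2, Blk) a stretch was at least 1 kb longer in B cells. This was so in 1.70% of the 13550 genes with a stretch over the start in B cells.

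**Figure D5:**
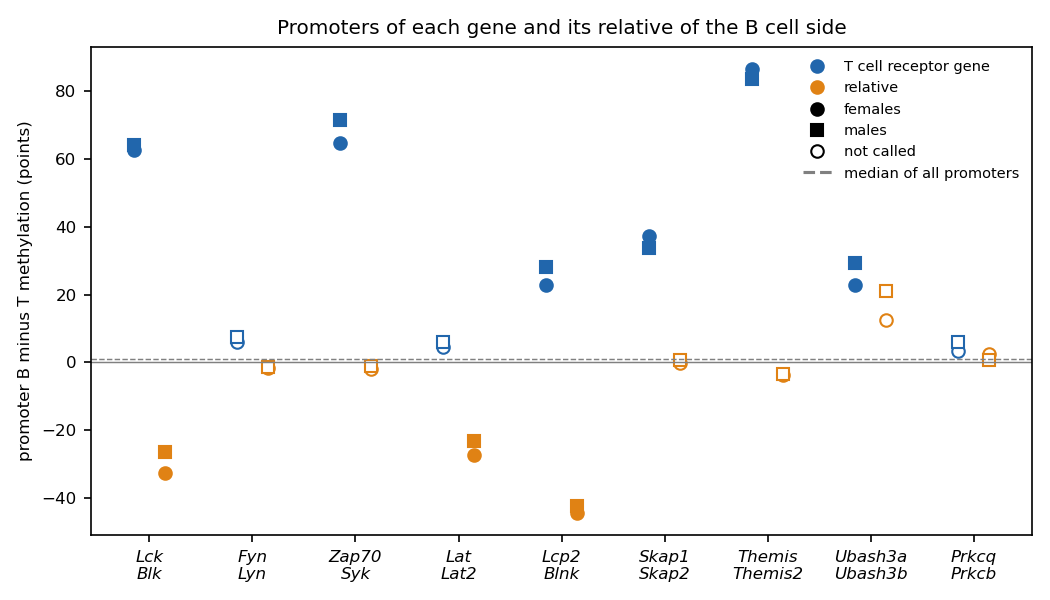
Promoter difference in methylation (B minus T, in percentage points) for each of the 9 genes (blue) and its relative (orange), with females as circles and males as squares and open symbols for promoters that were not called, and a dashed line at the median of all promoters (0.970 points). Lck, Zap70, Lcp2, Skap1, Themis and Ubash3a lie above 20 points in both sexes, and Blk, Lat2 and Blnk lie below -20 points.

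Other genes of the same pathway were read from a list of 33. Promoters of 7 were called, all higher in B cells, and the bodies of 11 were called, all higher in B cells, beside the 0.956% of all promoters and 1.31% of all bodies given above. The promoter count fell without female T cells, without male T cells and without male B cells, as did the count over all promoters. With no minimum difference, 19 promoters passed the test toward B cells and 1 toward T cells, beside the 17.7% and 2.20% of all promoters given above. Among the called promoters were those of Trat1 (72.7 points), an adaptor of the receptor complex, Cd5 (62.0), an inhibitory surface receptor, Txk (50.1), a Tec family kinase, and Cd6 (46.8), a surface receptor related to Cd5. Cd5 stood at 69.5% and 65.5% in B cells and at 4.63% and 6.30% in T cells, and was called with each library left out. Trat1 was not called without female T cells (72.6 points). Txk and Cd6 were not called without female T cells (49.5 and 48.6 points) or without male T cells (50.7 and 44.9 points).

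The median promoter difference over the 33 genes was 6.81 points and the median body difference 14.0 points. In their windows 561 of 2139 bins (26.2%) were called higher in B cells and 28 (1.31%) higher in T cells. The shares over all bins in the genome were 2.36% and 0.812%. A low stretch over the start that was at least 1 kb longer in T cells was found in 18 of the 33. Over the 13628 genes with a stretch over the start in T cells the share was 6.75%. The longest in the list was that of Ptprc with 57.2 kb in T cells and 3.38 kb in B cells, which was singled out after the values were seen. Ptprc encodes CD45, the phosphatase that keeps LCK active, and both cell types carry it.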

How the data were processed

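Whole genome oxidative bisulfite sequencing covered 8 samples in 4 groups. The submitters' processing notes name Trim Galore, FastQC, Bismark 0.13.1 and the build mm10. The study's methods describe its oxidative libraries as reading methylated and hydroxymethylated cytosine alike, whereas oxidation is meant to remove the latter, so values are called methylation levels. How methylation was called, whether duplicates were removed and whether a file joins its 2 samples are not given in the sources used here. The authors deposited, per CpG with at least 5 reads, the level (a fraction rounded up to 3 decimals) and the read count. Methylated reads were recovered as the whole number below level times reads, which returned 100% of the deposited levels. Positions counted from 0 and are given from 1. 

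Read counts of the 18684786 CpGs present in every library were added up per region, and regions with at least 5 CpGs (3 for transcript starts) and 20 reads in every library entered edgeR 4.0.16 in R 4.3.3 for its quasi-likelihood test. The model held a term per library, methylation, and cell type and sex on methylation. Fits with a library left out held no sex term. The test between the sexes held a cell type by sex term in place of sex. The common dispersion came from 20000 regions, and for all kinds but gene bodies and downstream flanks the quasi-dispersion was shrunk fully to a shared trend, so a region was judged against a spread common to all. With 1 value per group, p-values measure the spread among 4 libraries only. Scripts were tested on simulated data. The alternatives were no minimum difference, limma 3.58.1 on log2((methylated + 1)/(unmethylated + 1)), at least 10 reads per CpG, no minimum, each library left out, and other widths. Figures were drawn with matplotlib 3.10.9.

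The genes, the gene lists and the tests were chosen with earlier results of these data known. All 9 genes and their 9 relatives were described, with the 3 bins per gene of largest B minus T and the 1 of largest T minus B difference among those called, and up to 5 called genes per direction of the pathway list, of which 1 is not reported here. Printed stretches were the 300 bases within 1 kb of the start with most CpGs at 50 points or more in both sexes, kept off exons, and that of Prkcq was picked after its values were seen.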

Additional observations from a re-analysis of the deposited data

How the results depend on the processing

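No called promoter, body, flank or start of the 9 genes changed direction under the alternatives run, and none of the 245 called bins did with limma, with no minimum or with a library left out (nor the 171 that could be tested at 10 reads per CpG). Of the 245, 219 were called with limma and 230 to 237 with a library left out, a check added after seeing the data. Counts follow the order of promoters, gene bodies, flanks and starts of the 9 genes, then the promoters of the pathway list and the relatives. Dropping the minimum difference gave 8, 9, 13 and 11, then 20 and 5, in place of 6, 4, 3 and 5, then 7 and 3. It gave 485 called bins in place of 245, 441 of them higher in B cells and 44 higher in T cells. Starts were called 0 times with limma and not at all with a library left out, as was so for all start regions of the genome. With a library left out, the pathway list had 2 to 7 called promoters and the relatives 0 to 1, and the counts for the 9 genes were 4 to 6 promoters, 4 to 4 bodies, 3 to 3 flanks and 247 to 252 bins. In the promoter and start fits without a library the prior degrees of freedom fell from infinite to 3.27 to 3.99, so the spread was no longer fully shared between regions. Fewer of all promoters were called in those fits, so a lost call does not set a gene apart. Bins of 500 bases gave 277 calls of 1087, 244 higher in B cells and 33 higher in T cells. In the genome 41603 and 16879 of 1462516 such bins were called. Bins of 5 kb gave 53 calls of 230, 53 higher in B cells and 0 higher in T cells, and the cause was not tested. In the genome 5340 of 501029 bins of 5 kb were called higher in B cells and only 917 higher in T cells. With windows of 3 CpGs the low stretches covered 144 kb in T cells and 44.1 kb in B cells, in place of 159 and 47.1, and the stretch over the start shortened from 14.1 to 7.75 kb in Prkcq and from 6.24 to 3.27 kb in Themis. An unweighted mean over CpGs moved a promoter level of the 9 genes by at most 9.55 points, and the use of all CpGs listed in a library by at most 2.97. The test between the sexes called 0 regions also when bodies, flanks and starts were added, a choice made after seeing the data. It called 0 bodies, flanks and starts in the whole genome too. No paired analysis was possible because the groups share no replicate number. Depth limits single CpGs, with a median of 13 to 17 reads, more than it limits regions.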
